A study of Mus musculus with 143 samples.

Results

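Meiotic cohesin and the proteins that protect, release and cleave it were followed as 10 mouse genes in single oocytes that lack ribonucleases of the nuclear RNA exosome. The genes were chosen by name: the kleisins Rec8, Rad21l and Rad21, the SMC subunits Smc1b and Smc3, the STAG subunit Stag3, the shugoshins Sgo1 and Sgo2a, the separase gene Espl1 and the release factor gene Wapl. All 10 were present among the 55573 gene IDs of the poly(A) count files and the 55487 gene IDs of the RiboMinus count files. The filter on low counts kept 9 of the 10 in every fit and removed Rec8.

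Cohesin is a ring of SMC proteins closed by a kleisin and bound by a STAG subunit, and it holds sister chromatids together from replication until separase cuts the kleisin. In germ cells the meiotic subunits REC8, RAD21L, SMC1B and STAG3 take the place of general subunits, and in oocytes the rings loaded before birth must last through the long prophase arrest. Shugoshin recruits the phosphatase PP2A and shields kleisin at centromeres during the first meiotic division, and WAPL opens rings without cutting them.

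All RNA libraries were made from single mouse oocytes. Poly(A) libraries covered oocytes with an intact nucleus (germinal vesicle, GV), GV oocytes after 3 h of culture (GV3h) and ovulated metaphase II eggs (MII) from superovulated females, each as control (8 libraries) and as conditional knockout of Dis3 (Dis3 cKO, with 15, 16 and 16 libraries). RiboMinus libraries, sequenced after removal of ribosomal RNA with random priming, covered 2 ages with 8 libraries per group: adult GV oocytes (control, Dis3 cKO) and oocytes from mice 20 days after birth (p20), these in 4 genotypes, namely control, Dis3 cKO, Exosc10 cKO and the double knockout of both genes (dcKO). The proteins DIS3 and EXOSC10 degrade RNA as catalytic parts of the exosome. The labels state that the mutant mice were made with CRISPR/Cas9, and they give neither the Cre driver, the strain, the alleles carried by controls nor the age of adult females. Titles of RiboMinus libraries carry a tag shared by 4 libraries, 2 tags per group, whose meaning the labels do not give. CUT&Tag on pooled oocytes, which marks chromatin bound by an antibody, gave peak lists for the repressive histone mark H3K27me3 (12 lists) and RNA polymerase II (Pol II, 9 lists).

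The 71 poly(A) libraries held 4843964 to 15412200 gene counts each and the 48 RiboMinus libraries 8492102 to 35429028. Dis3 was lower in all Dis3 cKO and dcKO groups: at the GV stage of the poly(A) set its level was 9.6 to 17.9 CPM in controls and 0.683 to 5.85 CPM in Dis3 cKO. Exosc10 at p20 stood at 102 to 138 CPM in controls, 0.347 to 10.5 CPM in Exosc10 cKO and 3.09 to 14.4 CPM in dcKO. All 10 oocyte markers had reads in all 119 RNA libraries. Of 11 granulosa markers, Cyp19a1 and Kitl had reads in all 119 libraries and the others were at 0 in 6 (Star) to 118 (Ptx3). Of 7 blood, vessel and stroma markers, Pecam1 had reads in all and the others were at 0 in 38 (Dcn) to 116 (Hba-a1). Poly(A) libraries GV control 1 and MII Dis3 cKO 15 stood apart in an earlier analysis of these data. Here GV control 1 had the fewest genes detected of its group, 18661 against 18759 to 21431. MII Dis3 cKO 15 had 14.39 gene counts per ERCC spike-in count, against 48.59 to 80.98 in the other 15 of its group. By that ratio GV Dis3 cKO 16 was at 207.9, against 77.54 to 122.08 in the rest of its group. In p20 Dis3 cKO 1_4 it was 547.44, against 898.36 to 1200.64, and in Exosc10 cKO 2_4 it was 582.24, against 1114.47 to 1515.11. CPM here means TMM-scaled CPM, a library's counts relative to its scaled total, adjusted p-values come from edgeR (quasi-likelihood test, Benjamini-Hochberg adjustment over all genes tested), and errors of log2 fold changes are standard errors.

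The promoters of 3 members are shown because they lie where the CUT&Tag lists had peaks: Stag3 and Sgo1, whose starts were near Pol II peaks, and Rec8, whose start was near H3K27me3 peaks. Each is the 250 bases before an annotated start, read 5′ to 3′ on the gene's strand from RefSeq (GRCm38.p6). They are chr5:138280259-138280508 on the plus strand for Stag3, chr17:53689316-53689565 on the minus strand for Sgo1 and chr14:55617916-55618165 on the plus strand for Rec8. In all 3 the start used lies inside the span printed with the gene below, not at its outer end. Capitals mark the E-box CACGTG in Stag3 and Sgo1 and the CCAAT box, here on the other strand as ATTGG, in Rec8.
Stag3: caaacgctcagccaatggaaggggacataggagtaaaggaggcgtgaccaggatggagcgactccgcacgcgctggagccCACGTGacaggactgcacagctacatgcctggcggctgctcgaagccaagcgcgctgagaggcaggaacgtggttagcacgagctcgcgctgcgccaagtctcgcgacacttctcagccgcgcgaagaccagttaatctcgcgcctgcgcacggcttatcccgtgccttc
Sgo1: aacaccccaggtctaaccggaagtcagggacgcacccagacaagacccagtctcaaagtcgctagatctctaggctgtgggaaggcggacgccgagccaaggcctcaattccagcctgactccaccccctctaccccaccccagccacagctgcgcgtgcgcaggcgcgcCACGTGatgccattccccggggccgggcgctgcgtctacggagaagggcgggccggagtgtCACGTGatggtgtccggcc
Rec8: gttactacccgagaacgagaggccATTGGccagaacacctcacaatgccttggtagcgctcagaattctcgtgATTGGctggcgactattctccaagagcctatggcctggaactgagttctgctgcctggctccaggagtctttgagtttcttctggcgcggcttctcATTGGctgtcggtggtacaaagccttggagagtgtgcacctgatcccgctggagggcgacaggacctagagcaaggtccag
Searched on both strands, CACGTG occurred in 6.0% of all 32851 RefSeq promoters of this length and in the promoters of Stag3, Sgo1 and Espl1. In Stag3 it lay 170 to 165 bases before the start, and in Sgo1 it occurred 80 to 75 and 19 to 14 bases before the start. CCAAT occurred in 33.8% of all promoters and in those of Espl1, Rec8, Sgo2a, Smc1b, Stag3 and Wapl. The GC box GGGCGG occurred in 32.7% of all promoters and in those of Espl1, Sgo1, Sgo2a, Smc3 and Wapl, and the E2F motif TTCCCGC in 3.8% of all promoters and, among the members, in Smc1b alone. A match is a description of the letters, and no binding was measured. Rad21 had no entry in the promoter table.

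Across the knockout comparisons, the members did not move as a block. Loss of Dis3 changed 0 of 9 tested members in poly(A) GV oocytes, 3 in GV3h oocytes and 4 in MII eggs, and the largest change was a rise of Stag3 in MII eggs. In RiboMinus libraries, loss of Dis3 changed 2 members in adult GV oocytes and 0 at p20, loss of Exosc10 changed 1, and loss of both changed 5. With sums per title tag the counts in adult Dis3 cKO and in Exosc10 cKO were both 0. Over all genes, 0 and 174 passed there, against 4305 and 1183 without sums. Smc1b, Wapl and Espl1 fell in more than 1 comparison, whereas Rad21 fell in MII eggs and rose in adult Dis3 cKO and in dcKO oocytes. These are statements on the TMM scale. With ERCC scaling all 3 Rad21 calls were lost, as were those of Smc1b and Espl1 at GV3h, Wapl at MII and Espl1 in Exosc10 cKO. That left Espl1 called in adult Dis3 cKO alone. ERCC scaling also added calls, all lower. At GV these were Rad21l (−1.31) and Wapl (−0.47), beside an all-gene median of −0.23. In adult Dis3 cKO they were Smc1b (−0.83), Sgo1 (−0.48), Sgo2a (−0.59) and Wapl (−0.73), beside −0.52. The counts were then 2 at GV and 5 in adult Dis3 cKO. Over all genes, ERCC scaling called 6843 in adult Dis3 cKO, against 4305 with TMM. The adult count thus rose along with that of all genes and is no result about the members.

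As shares of the 9 members these counts were 33.3% at GV3h, 44.4% at MII, 22.2% in adult Dis3 cKO, 11.1% in Exosc10 cKO and 55.6% in dcKO, beside 38.6%, 42.1%, 28.1%, 7.45% and 53.7% of all genes, so each was within 1 member of the share of all genes and is no result about the members as a group. In GV oocytes 21.9% of 17389 tested genes were called and 0 of 9 members; Rad21l alone had an unadjusted p under 0.05, and DESeq2 also called 0 members. In GV3h oocytes 38.6% of genes and 3 of 9 members were called, all 3 lower. In MII eggs the shares were 42.1% of genes and 4 of 9 members, with 3 lower and 1 higher. The median log2 fold change of the 9 members was −0.08 at GV, −0.27 at GV3h and −0.32 at MII, beside 0.04, 0.07 and 0.16 over all genes tested. In adult GV oocytes 28.1% of genes and 2 of 9 members were called, with a member median of 0.08 and 0.03 over all genes. At p20, the Dis3 cKO comparison called 7.37% of genes and 0 members (median 0.07 beside 0.00), with Smc3 and Sgo2a under 0.05 before adjustment and 0 called by DESeq2. The Exosc10 cKO comparison called 7.45% of genes and 1 member (median −0.07 beside 0.02). The dcKO comparison called 53.7% of genes and 5 members, 3 higher and 2 lower (median −0.11 beside −0.01). The 3 p20 comparisons share their 8 control libraries, and the labels do not say which oocytes came from separate females, so all p-values measure only the spread between these oocytes.

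**Figure D1:**
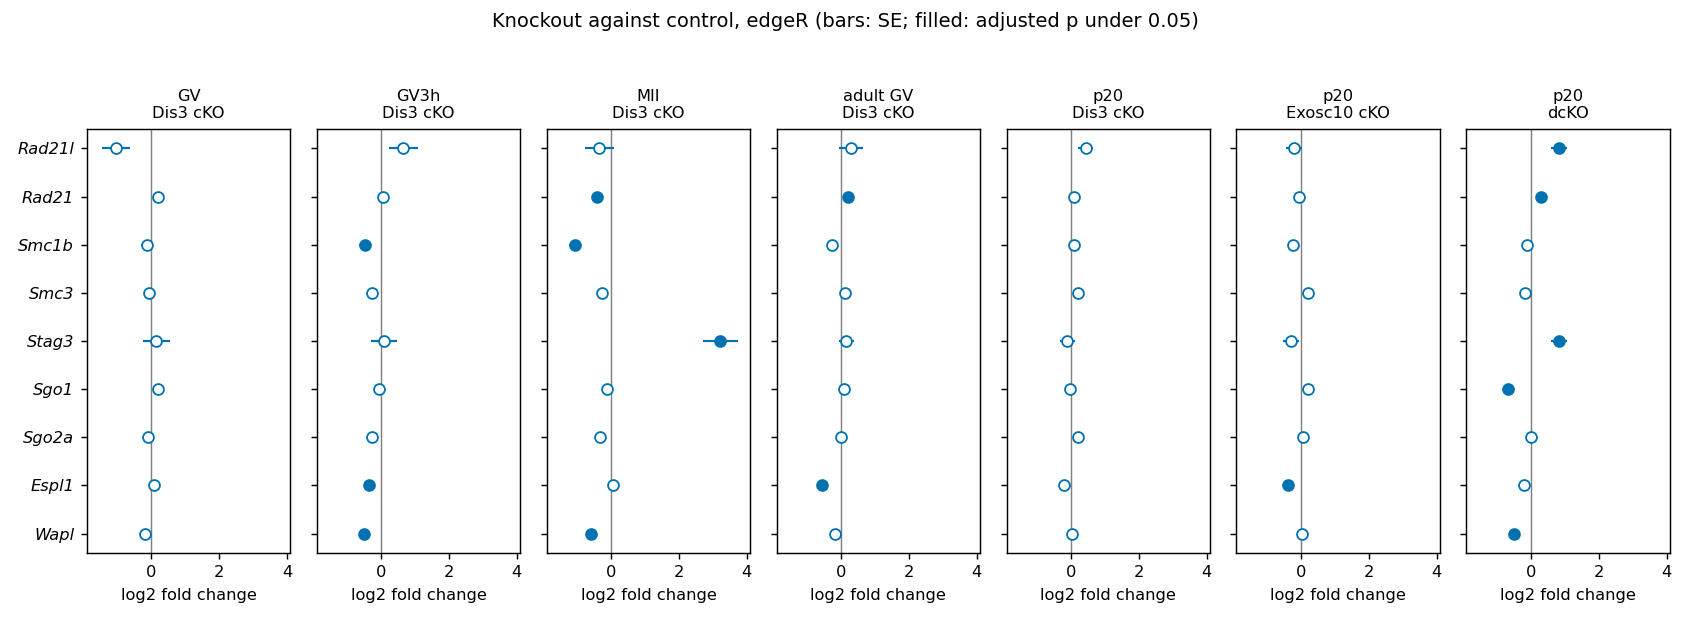
Log2 fold change of each tested member (x axis) in 7 comparisons of a knockout with its control (panels); bars are standard errors and filled points passed an adjusted p of 0.05. Stag3 in MII eggs lies farthest from 0, at 3.22, and no point is filled in GV oocytes or in Dis3 cKO oocytes at p20.

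Rec8 (ENSMUSG00000002324, chr14:55618002-55625395), the kleisin that carries arm and centromere cohesion through meiosis, was almost without reads in both assays. In 71 poly(A) libraries it had 12 reads in all, in 4 libraries of the GV3h stage: control 2 with 1 read, control 5 with 2, Dis3 cKO 15 with 4 and Dis3 cKO 16 with 5. In 48 RiboMinus libraries it had 1 read, in dcKO 2_2. The pooled level was 0.0178 CPM (95% exact Poisson interval 0.0092 to 0.0311) in poly(A) and 0.00108 CPM (2.73e-05 to 0.006) in RiboMinus libraries. For the 9 groups at 0, a count of 0 allows up to 3 reads over the group, or 0.0138 to 0.0461 CPM. These intervals and limits cover counting error only, and a 0 here counts reads that the authors assigned to Rec8. No RefSeq gene overlaps the Rec8 locus, and whether the authors' counting lost reads of Rec8 was not tested. No comparison of Rec8 between groups could be made at this level, and its transcript level at the time of sampling says nothing on the protein.

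Rad21l (ENSMUSG00000074704, chr2:151644366-151670622), the kleisin of early meiotic prophase, was read at a low level in all groups, with 1 library at 0, an MII Dis3 cKO egg. Its group medians ranged from 2.39 to 3.5 CPM in poly(A) libraries and from 4.67 to 12.2 CPM in RiboMinus libraries. At p20 the 8 controls lay at 2.87, 7.93 and 9.60 CPM (lowest, median, highest), and the 8 dcKO oocytes at 10.5, 12.2 and 17.0 CPM. Every dcKO library lay above every control library, and Rad21l rose by 0.84 ± 0.23 on the log2 scale (adjusted p = 0.00252). In poly(A) GV oocytes its level was 1.95, 3.5 and 9.53 CPM in controls and 0.323, 2.49 and 5.41 CPM in Dis3 cKO, a log2 difference of −1.03 ± 0.42 that missed the threshold (adjusted p = 0.0648). That difference passed without GV control 1 and MII Dis3 cKO 15 (−1.11, adjusted p = 0.0353). It also passed without control 8 or without Dis3 cKO 6, at −1.16 to −1.15. With ERCC scaling it passed at −1.31 (adjusted p = 0.0394, beside an all-gene median of −0.23). A fit of only the groups compared also called it (−1.03, adjusted p = 0.0284). With Dis3 cKO numbers 9 to 16 alone it did not pass (−0.94, adjusted p = 0.266).

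Rad21 (ENSMUSG00000022314, chr15:51962604-51993538), the kleisin of mitotic cohesin, passed in 3 of 7 comparisons of a knockout with its control on the TMM scale. In MII eggs it stood at 131, 174 and 245 CPM in controls and 89.2, 124 and 167 CPM in Dis3 cKO. All 16 Dis3 cKO eggs lay below the control median and 9 lay below every control, and Rad21 fell by 0.43 ± 0.11 (adjusted p = 0.000773), a call that was lost with ERCC scaling (−0.08, adjusted p = 0.763). In GV oocytes it stood at 64.4, 90.7 and 117 CPM in controls and 86.0, 107 and 139 CPM in Dis3 cKO, a difference of 0.21 ± 0.11 that did not pass (adjusted p = 0.186). The Dis3 effect at MII minus that at GV was −0.64 ± 0.16 (adjusted p = 0.00259), and with ERCC scaling it was −0.04 (adjusted p = 0.925). In adult RiboMinus GV oocytes it stood at 243, 280 and 307 CPM in controls and 287, 306 and 340 CPM in Dis3 cKO, where all 8 libraries lay above the control median, and it rose by 0.19 ± 0.06 (adjusted p = 0.0207). With ERCC scaling that adult difference was −0.36 (adjusted p = 0.0867), beside a median of −0.52 over all genes, so its direction depends on the scaling. The adult call was also lost with no filter (0.17, adjusted p = 0.0895) and with sums per title tag (0.14, adjusted p = 0.533). With those sums 0 of all genes passed.

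Smc1b (ENSMUSG00000022432, chr15:85064689-85131957), the meiotic partner of SMC3, was the member that fell most in MII eggs. Its level was 38.6, 56.5 and 75.2 CPM in control eggs and 10.6, 29.1 and 46.6 CPM in Dis3 cKO eggs. All 16 Dis3 cKO eggs lay below the control median, 14 below every control, and Smc1b fell by 1.06 ± 0.17 (adjusted p = 6.49e-07). At GV3h it stood at 21.2, 24.6 and 37.1 CPM in controls and 9.73, 17.9 and 27.5 CPM in Dis3 cKO, with 11 of 16 below every control, and fell by 0.49 ± 0.18 (adjusted p = 0.0229). Without GV3h control 1 that difference was −0.40 and did not pass, nor did it with libraries numbered 1 to 8 alone (−0.39, adjusted p = 0.0883). At GV the groups overlapped, at 24.2, 27.5 and 36.0 CPM in controls and 11.3, 26.3 and 48.2 CPM in Dis3 cKO (−0.13 ± 0.18, adjusted p = 0.657). The Dis3 effect at MII minus that at GV was −0.93 ± 0.25 (adjusted p = 0.00826). With ERCC scaling this was −0.25 (adjusted p = 0.577), and the GV3h difference was −0.45 (adjusted p = 0.133), neither of which passed. In RiboMinus libraries, on the TMM scale, Smc1b passed in 0 of 4 comparisons with a control: the log2 differences were −0.26 in adult Dis3 cKO, 0.07 in p20 Dis3 cKO, −0.22 in Exosc10 cKO and −0.11 in dcKO. With ERCC scaling the adult difference was −0.83 and passed (adjusted p = 0.00351), beside an all-gene median of −0.52.

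Smc3 (ENSMUSG00000024974, chr19:53600396-53645831), the SMC subunit shared by meiotic and mitotic cohesin, passed in 0 of 7 comparisons of a knockout with its control in the TMM-scaled edgeR fits of all libraries. In MII eggs it stood at 338, 449 and 690 CPM in controls and 57.9, 414 and 536 CPM in Dis3 cKO. The lowest value was that of MII Dis3 cKO 15, the library with few gene counts per ERCC count, and the next lowest was 296 CPM. At GV3h the log2 difference was −0.28 ± 0.15 (adjusted p = 0.117), with 9 of 16 Dis3 cKO libraries below every control. Without GV control 1 and MII Dis3 cKO 15, neither of them a GV3h library, it was −0.34 (adjusted p = 0.0044). That difference also passed in a fit of only the groups compared (−0.30, adjusted p = 0.00775). It passed with libraries numbered 1 to 8 alone as well (−0.32, adjusted p = 0.0312). In dcKO oocytes it stood at 233, 270 and 325 CPM, against 271, 310 and 374 CPM in p20 controls, 273, 338 and 474 CPM in Dis3 cKO and 306, 367 and 404 CPM in Exosc10 cKO.

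Stag3 (ENSMUSG00000036928, chr5:138272514-138312397), the meiosis-specific STAG subunit, had the largest differences of any member, between stages and between genotypes. Its level in controls was 3.09, 4.71 and 10.3 CPM at GV, 3.72, 7.19 and 11.5 CPM at GV3h and 0, 0.102 and 1.12 CPM at MII, where 4 of 8 libraries were at 0. In Dis3 cKO it was 2.81, 5.76 and 10.6 CPM at GV, 2.62, 7.54 and 13.6 CPM at GV3h and 0, 2.06 and 6.66 CPM at MII, where 1 of 16 was at 0. The groups overlapped widely at GV and GV3h, while 13 of 16 Dis3 cKO eggs lay above every control egg.

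The MII difference in Stag3 rested on few reads in controls. The 8 control eggs held 17 Stag3 reads in all, or 0.193 CPM (95% exact Poisson interval 0.112 to 0.309), and the 16 Dis3 cKO eggs held 339, or 2.10 CPM (1.88 to 2.34), with counting error alone in the intervals. Of the 17 control reads, 9 came from control 1. Stag3 was higher in Dis3 cKO eggs by 3.22 ± 0.52 on the log2 scale (adjusted p = 5.86e-07), and the Dis3 effect at MII minus that at GV was 3.07 ± 0.63 (adjusted p = 0.000355). Within Dis3 cKO it fell from GV to MII by 1.38 ± 0.32 (adjusted p = 0.000155), and within controls by 4.45 ± 0.56 (adjusted p = 1.57e-10). Leaving out 1 library gave 3.02 to 4.1 for the MII difference, 2.87 to 3.95 for MII minus GV and −5.34 to −4.25 for the fall in controls, and the ends farthest from 0 were those without MII control 1. The fitted fold changes depend on the prior count that edgeR adds, and they are not bounds. Stag3 shares its locus with the RefSeq genes Gal3st4 and Gpc2. Other members overlap RefSeq genes too: Smc1b overlaps Fam118a and Gm10923, Rad21 overlaps Gm52217, Sgo1 overlaps Gm31532 and Wapl overlaps 5830448L01Rik. The sources used here do not say whether reads were counted by strand, so for these 5 members reads of the overlapping genes cannot be told apart.

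Stag3 also rose in dcKO oocytes at p20, from 3.78, 7.89 and 12.1 CPM in controls to 7.26, 14 and 21.5 CPM. Of the 8 dcKO libraries 5 lay above every control, and the log2 difference was 0.84 ± 0.23 (adjusted p = 0.00253). It stood at 3.19, 7.78 and 11 CPM in p20 Dis3 cKO, 4.51, 6.39 and 8.85 CPM in Exosc10 cKO, 5.26, 7.97 and 12.1 CPM in adult controls and 5.47, 8.76 and 13.5 CPM in adult Dis3 cKO, and none of these 3 single knockouts passed against its control.

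Sgo1 (ENSMUSG00000023940, chr17:53674786-53691331), the shugoshin best known from mitotic centromeres, passed in 1 of 7 comparisons of a knockout with its control, that of dcKO oocytes, on the TMM scale. With ERCC scaling it also passed in adult Dis3 cKO (−0.48, adjusted p = 0.0266, beside an all-gene median of −0.52), where it was 0.08 with TMM. At p20 it stood at 59.7, 81.8 and 101 CPM in controls and 33.6, 48.2 and 70.1 CPM in dcKO. All 8 dcKO libraries lay below the control median and 6 below every control, and Sgo1 fell by 0.68 ± 0.12 (adjusted p = 1.33e-05). It stood at 62.4, 80.4 and 93.2 CPM in p20 Dis3 cKO and 74.1, 95.8 and 105 CPM in Exosc10 cKO, and every dcKO library lay below every Exosc10 cKO library. In poly(A) GV oocytes the difference of 0.21 did not pass (adjusted p = 0.238), and without GV control 1, whose 115 CPM was the highest of that group, and MII Dis3 cKO 15 it was 0.31 (adjusted p = 0.0451).

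Sgo2a (ENSMUSG00000026039, chr1:57985340-58026277), the shugoshin that protects centromeric REC8 in oocytes, passed in 0 of 7 comparisons of a knockout with its control in the TMM-scaled edgeR fits of all libraries. In MII eggs it stood at 222, 275 and 403 CPM in controls and 137, 235 and 372 CPM in Dis3 cKO, a log2 difference of −0.32 ± 0.14 (adjusted p = 0.0623). It passed there in 5 of 24 fits that left out 1 library, without control 3 or 4 or Dis3 cKO 1, 2 or 3, at −0.37 to −0.35. It also passed there with RLE factors (−0.35, adjusted p = 0.0337), in DESeq2 (−0.35, adjusted p = 0.0328) and with Dis3 cKO numbers 9 to 16 alone (−0.57, adjusted p = 0.00116). At GV3h it passed with libraries numbered 1 to 8 alone (−0.43, adjusted p = 0.0248), and in adult Dis3 cKO with ERCC scaling (−0.59, adjusted p = 0.0156, beside an all-gene median of −0.52). In p20 Dis3 cKO it passed in a fit of only the groups compared (0.22, adjusted p = 0.0418). In adult RiboMinus GV oocytes it stood at 139, 160 and 172 CPM in controls, and the Dis3 cKO libraries spread from 80.9 to 205 CPM. Of these, the 4 libraries tagged AM1713 lay at 80.9 to 173 CPM and the 4 tagged AM1757 at 165 to 205 CPM.

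The Sgo2a to Sgo1 count ratio within a library, which no scaling changes, was compared in 8 pairs of groups with 2-sided exact permutation tests on the log2 scale. At p20 its median was 1.9 (range 1.65 to 2.72) in controls and 3.16 (2.05 to 5.27) in dcKO, with 6 of 8 dcKO libraries above every control. The mean log2 difference was 0.688 (exact permutation p = 0.0014, Benjamini-Hochberg adjusted p = 0.0112). In GV oocytes the ratio was 2.27 in controls and 1.75 in Dis3 cKO at the median, a log2 difference of −0.329 that did not pass (exact permutation, adjusted p = 0.101). Without GV control 1 it was −0.439 (exact permutation, adjusted p = 0.0172). In the other 6 pairs the adjusted p was 0.101 or more, and the ratio median ranged from 1.55 to 2.34.

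Espl1 (ENSMUSG00000058290, chr15:102296254-102324357) encodes separase, the protease that cleaves kleisin at anaphase. It fell in 3 comparisons. At GV3h it stood at 168, 185 and 198 CPM in controls and 105, 146 and 158 CPM in Dis3 cKO, and the groups did not overlap (−0.36 ± 0.12, adjusted p = 0.0123). In adult RiboMinus GV oocytes it stood at 372, 401 and 557 CPM in controls and 231, 276 and 334 CPM in Dis3 cKO, again without overlap (−0.57 ± 0.09, adjusted p = 0.000138). Both title tags of the adult knockout lay in the same range, 231 to 334 CPM and 239 to 308 CPM. With the 4 libraries of a tag summed, the adult difference was −0.60 and did not pass (adjusted p = 0.133). In that fit 0 of all genes passed, so it cannot decide on Espl1. With ERCC scaling the GV3h difference was −0.39 and did not pass (adjusted p = 0.167).

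In Exosc10 cKO oocytes Espl1 stood at 171, 358 and 398 CPM, against 388, 406 and 482 CPM in p20 controls, with 7 of 8 below every control (−0.39 ± 0.12, adjusted p = 0.0407). This call was lost in 10 of 16 fits that left out 1 library, at −0.44 to −0.29 over the 16 fits: without any of controls 1_1 to 1_4 and 2_1 to 2_3, or of Exosc10 cKO 2_2 to 2_4. It was also lost with ERCC scaling (−0.33, adjusted p = 0.707), with no filter (−0.39, adjusted p = 0.0545) and with sums per title tag (−0.39, adjusted p = 0.395). With libraries of title tag number 1 alone the difference was −0.12 (adjusted p = 0.648) and with those of number 2 −0.69 (adjusted p = 0.0289). Espl1 stood at 294, 354 and 432 CPM in p20 Dis3 cKO and at 283, 344 and 448 CPM in dcKO. Neither passed in the fit of all p20 libraries. The dcKO difference passed with libraries of tag number 1 alone (−0.32, adjusted p = 0.0224) and not with those of number 2. In poly(A) GV oocytes and MII eggs Espl1 did not pass, with log2 differences of 0.07 and 0.04 and overlapping groups. The difference between GV3h and the other stages in the effect of the knockout on Espl1 was not tested, while the adult effect minus the p20 effect was −0.38 ± 0.16 (adjusted p = 0.135).

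Wapl (ENSMUSG00000041408, chr14:34672379-34747983), which encodes the factor that opens cohesin rings, fell in GV3h oocytes, MII eggs and dcKO oocytes on the TMM scale. At GV3h it stood at 459, 536 and 641 CPM in controls and 186, 375 and 569 CPM in Dis3 cKO, with 12 of 16 below every control (−0.50 ± 0.14, adjusted p = 0.00292). At MII it stood at 987, 1100 and 1580 CPM in controls and 482, 751 and 1090 CPM in Dis3 cKO, with 13 of 16 below every control (−0.58 ± 0.14, adjusted p = 0.000481). At p20 it stood at 622, 729 and 934 CPM in controls and 427, 528 and 621 CPM in dcKO, without overlap (−0.51 ± 0.10, adjusted p = 4.66e-05). Both single knockouts at p20 had a median near that of the controls, 735 CPM in Dis3 cKO and 729 CPM in Exosc10 cKO. With ERCC scaling Wapl also passed as lower at GV (−0.47, adjusted p = 0.0172, beside an all-gene median of −0.23) and in adult Dis3 cKO (−0.73, adjusted p = 0.00173, beside −0.52), where it was −0.17 with TMM, and the MII call was lost (−0.28, adjusted p = 0.117).

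With library sizes from ERCC counts, the MII calls of Rad21 and Wapl were lost: the log2 differences were −0.08 (adjusted p = 0.763) and −0.28 (adjusted p = 0.117), beside a median over all genes of 0.52. Smc1b at −0.70 (adjusted p = 0.01) and Stag3 at 3.49 (adjusted p = 1.33e-06) kept theirs. Of the 9 members, 1 lay above the all-gene median in that comparison. ERCC scaling sets counts against RNA added to each lysate, and TMM sets them against most genes.

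**Figure D2:**
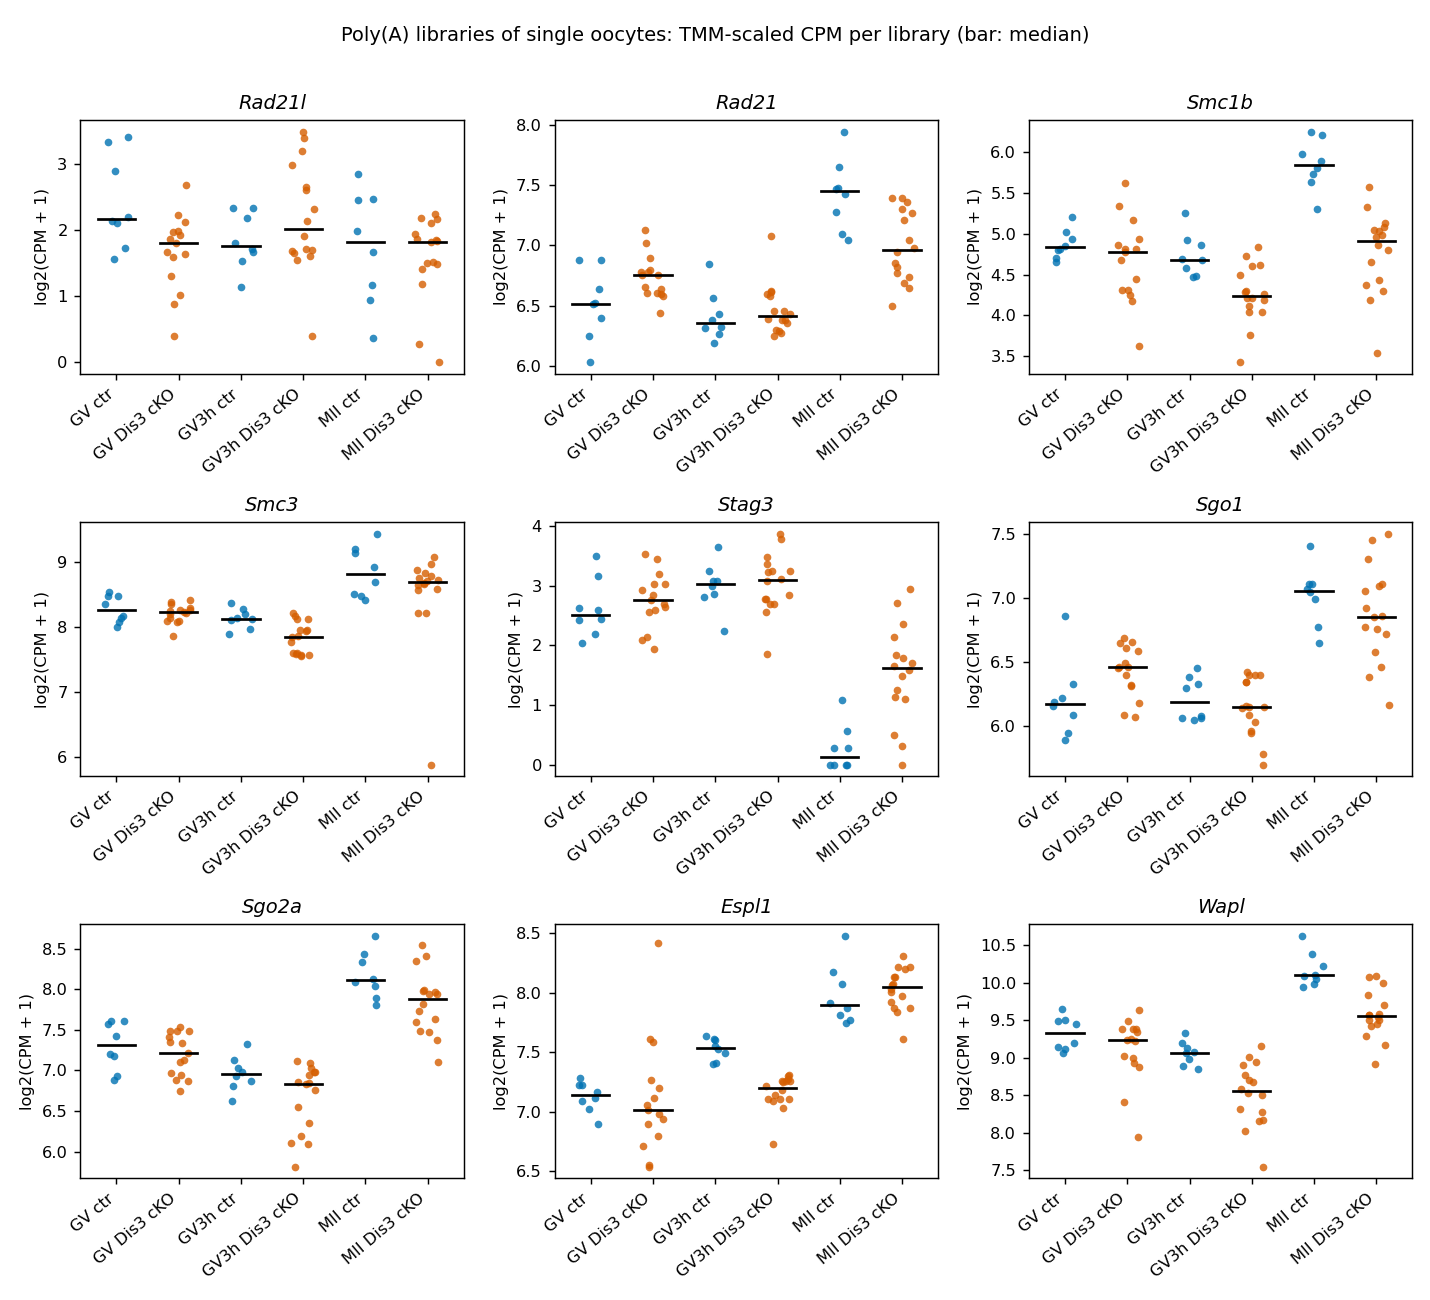
Level of the 9 tested members in each poly(A) library, as log2 of TMM-scaled CPM plus 1 (y axis), by stage and genotype (x axis); each point is 1 oocyte and each bar a group median. Stag3 is near 0 in control MII eggs and up to 6.66 CPM in Dis3 cKO eggs, and the GV3h groups of Espl1 do not overlap.

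Between GV oocytes from ovaries and ovulated MII eggs, most members differed, while stage and superovulation cannot be told apart. In controls, 8 of 9 members passed beside 58.5% of all genes: Rad21, Smc1b, Smc3, Sgo1, Sgo2a, Espl1 and Wapl were higher in MII eggs and Stag3 lower, on the TMM scale. The 7 higher members differed by 0.61 to 1.02, Smc3 least and Smc1b most, and the member median was 0.85 beside −0.27 over all genes. Rad21, Smc1b, Sgo2a, Espl1, Wapl and Stag3 did not overlap between the stages. The share of all genes without overlap was not counted, so this is no result about the members. Within Dis3 cKO, 7 of 9 members passed beside 63.3% of all genes, with 6 higher and Stag3 lower, and a median of 0.41 beside −0.26. There Smc1b did not pass, at 0.09 ± 0.15 (adjusted p = 0.613), and Rad21 was higher by 0.28 ± 0.09. With Dis3 cKO numbers 9 to 16 alone, Rad21 (0.32, adjusted p = 0.0623) and Smc3 (0.36, adjusted p = 0.14) did not pass between these stages. The Dis3 effect at MII minus that at GV, tested as an interaction, passed for 13.2% of genes and for 3 of 9 members, Rad21, Smc1b and Stag3, and the member median was −0.21 beside 0.07; with ERCC scaling, of these only Stag3 passed.

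With ERCC scaling all 7 of the higher members were lower in control MII eggs than in GV oocytes, at −1.25 to −0.85, and so were they in Dis3 cKO. The median over all genes was then −2.12 in controls and −1.50 in Dis3 cKO, and 7 and 8 of the 9 members lay above it. Under both scalings these 7 members lay above the median gene in controls and Stag3 lay below it. Less RNA per egg and a change in the share of each RNA cannot be told apart from TMM values alone. MII eggs were read in poly(A) libraries only. A change in how much of an RNA is captured by poly(A) selection therefore cannot be told apart from a change in its amount.

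**Figure D3:**
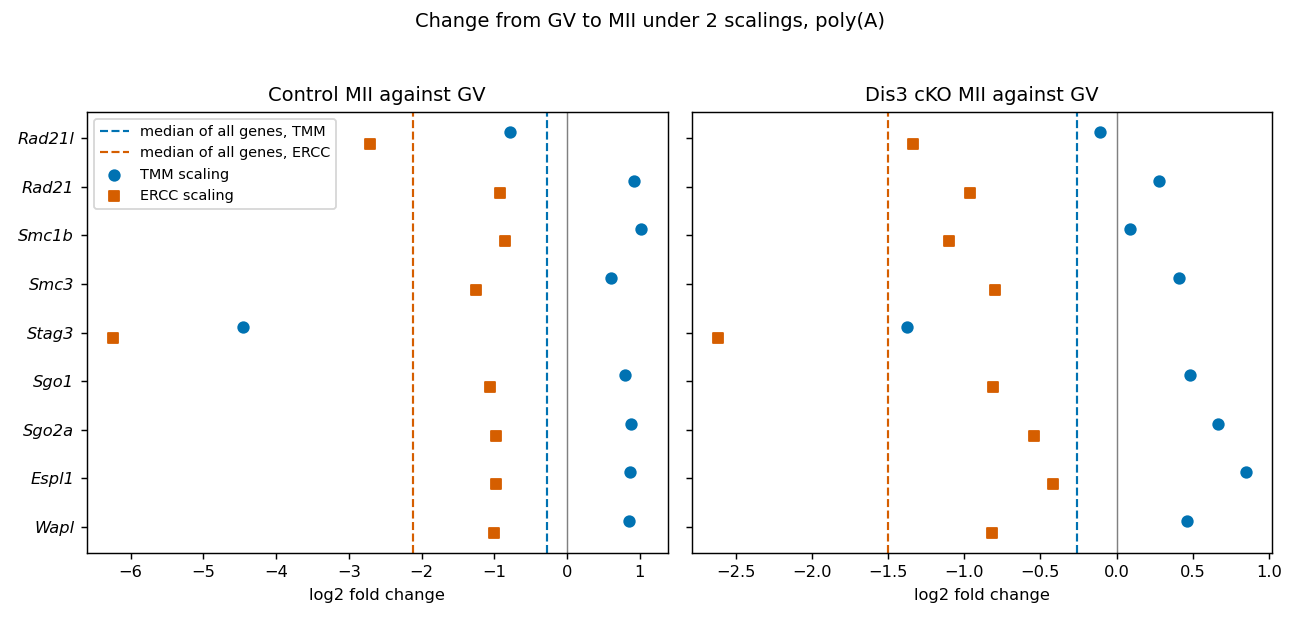
Log2 fold change from GV to MII (x axis) of each tested member in controls and in Dis3 cKO, with TMM scaling (circles) and with ERCC scaling (squares); dashed lines are the medians over all genes tested. In controls, 7 members lie right of 0 with TMM and left of 0 with ERCC, and right of the dashed median line with both.

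After 3 h of culture, 2.71% of all genes and 0 of 9 members passed in controls (median −0.13 beside −0.05), with Sgo2a and Espl1 under 0.05 before adjustment and 0 called by DESeq2. Espl1 stood at 118, 140 and 155 CPM in GV controls, below all 8 GV3h controls (0.40 ± 0.14, adjusted p = 0.115). It passed where the fit held only these 16 libraries, and also where Dis3 cKO libraries numbered 9 to 16 were the only knockouts in the fit (0.44, adjusted p = 0.0077).

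At p20, loss of both ribonucleases was compared with loss of each. Against Dis3 cKO 51.5% of genes and 5 of 9 members passed: Sgo1 (−0.64), Wapl (−0.53), Smc3 (−0.38) and Sgo2a (−0.22) were lower in dcKO and Stag3 (0.94) higher, with a member median of −0.18 beside 0.02. Against Exosc10 cKO 49.2% of genes and 6 of 9 members passed: Sgo1 (−0.88), Wapl (−0.55) and Smc3 (−0.37) were lower and Rad21l (1.04), Stag3 (1.13) and Rad21 (0.36) higher, with a median of 0.11 beside −0.01. The departure of the dcKO effect from the sum of both single effects on the log2 scale passed for 31.4% of genes and 5 of 9 members (median 0.04 beside 0.00). It was −0.84 for Sgo1, −0.58 for Wapl, −0.57 for Smc3, −0.28 for Sgo2a and 1.24 for Stag3. None of these 5 departures passed with sums per title tag, where the values were −0.85, −0.58, −0.58, −0.28 and 1.16 (adjusted p = 0.0674, 0.0835, 0.0742, 0.287 and 0.0979). With ERCC scaling Stag3 passed and the others did not: Sgo1 was −0.54 (adjusted p = 0.188), Wapl −0.33 (adjusted p = 0.45), Smc3 −0.33 (adjusted p = 0.378) and Sgo2a −0.03 (adjusted p = 0.945). Against Dis3 cKO, ERCC scaling also ended the calls of Sgo1 (−0.34, adjusted p = 0.168), Wapl (−0.26, adjusted p = 0.286) and Smc3 (−0.13, adjusted p = 0.559), and it added Rad21l (0.72, adjusted p = 0.022) and Rad21 (0.43, adjusted p = 0.019), both higher in dcKO, beside an all-gene median of 0.26. Against Exosc10 cKO, Rad21 was lost with ERCC scaling (0.32, adjusted p = 0.0896) and with sums per tag (0.34, adjusted p = 0.199). For Sgo2a the additivity adjusted p was 0.0479 and the call was lost in 13 of 32 fits that left out 1 library, at −0.34 to −0.22, and with RLE factors, DESeq2, the 1 CPM filter and no filter (adjusted p = 0.0691, 0.0644, 0.0738 and 0.161). Its lower level in dcKO than in Dis3 cKO was lost without Dis3 cKO 2_3 or 2_4, at −0.28 to −0.16. That difference was also lost with no filter (−0.20, adjusted p = 0.0851) and with sums per tag (−0.23, adjusted p = 0.141), and with ERCC scaling it was 0.01. With title tag number 1 alone, Smc3 passed neither against Dis3 cKO (−0.18, adjusted p = 0.192) nor against Exosc10 cKO (−0.20, adjusted p = 0.155). Its additivity departure did not pass either (−0.26, adjusted p = 0.251), while Rad21 departed by 0.93 (adjusted p = 4.64e-05). With tag number 2 alone, Stag3 was 0.50, 0.64 and 0.86 in the same tests and did not pass (adjusted p = 0.191, 0.0865 and 0.142).

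**Figure D4:**
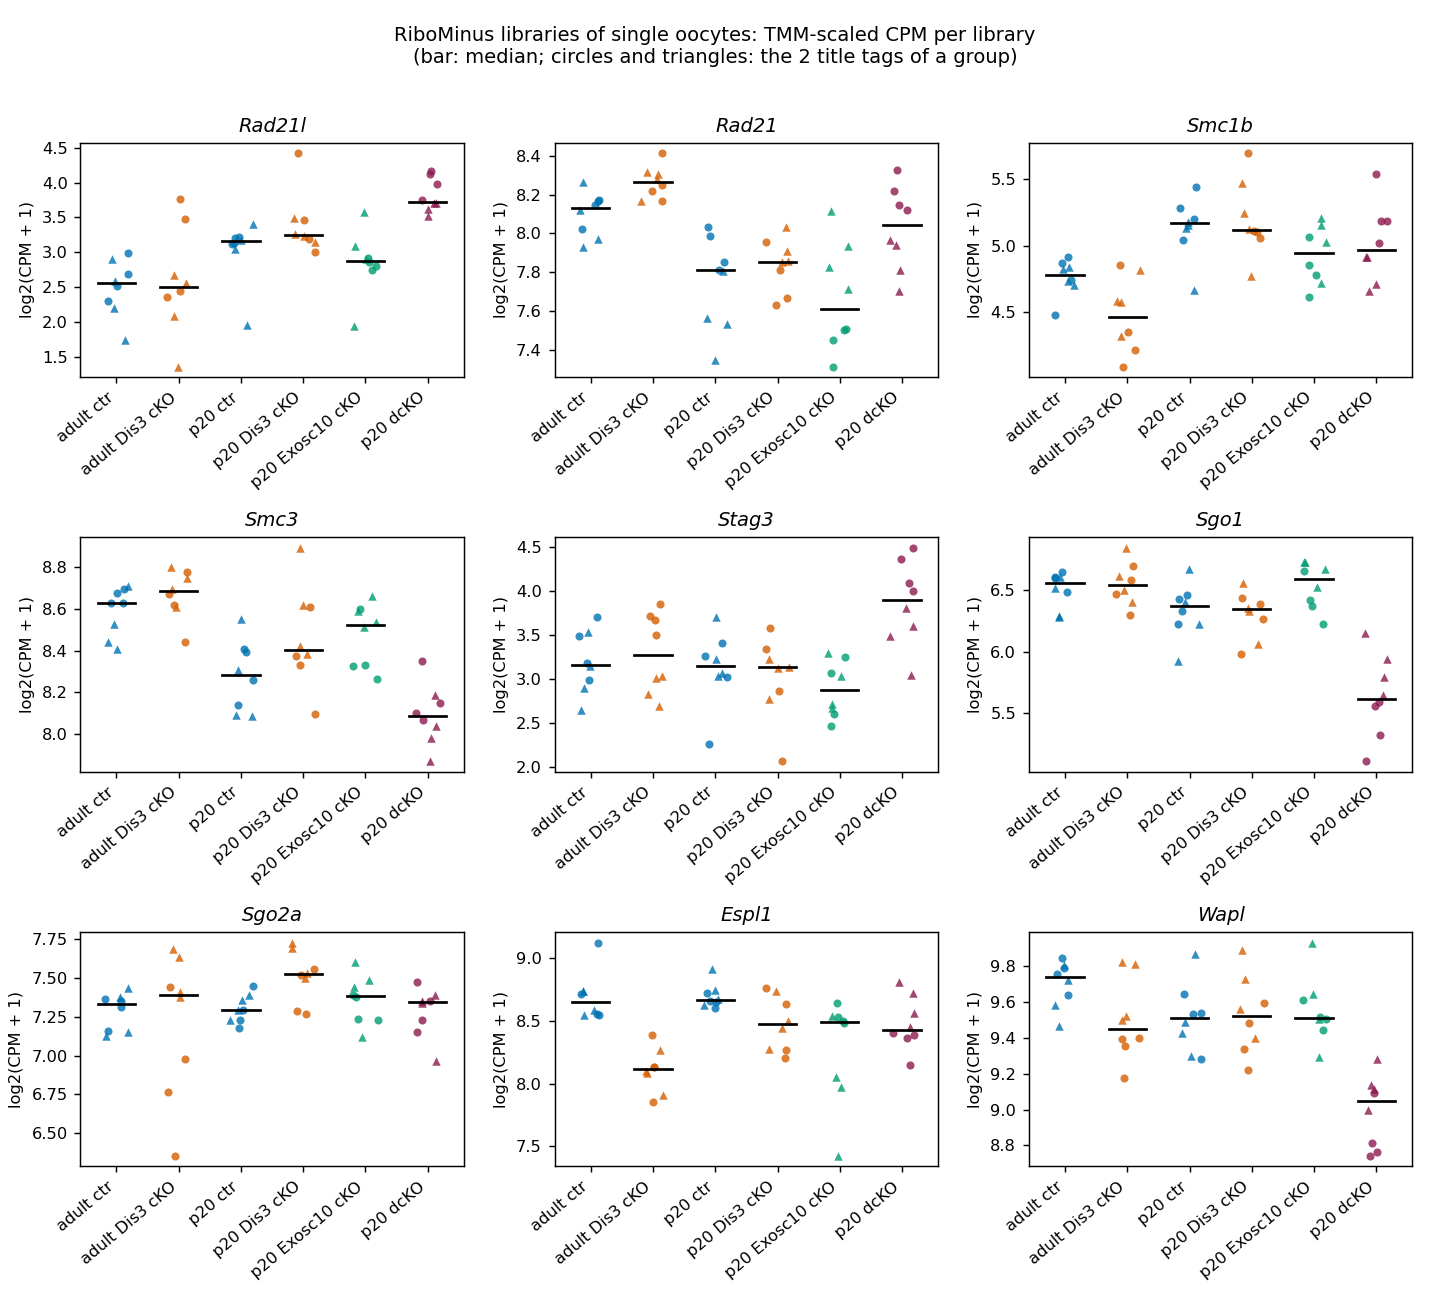
Level of the 9 tested members in each RiboMinus library, as log2 of TMM-scaled CPM plus 1 (y axis), by age and genotype (x axis); each point is 1 oocyte, bars are medians, and circles and triangles are the 2 title tags of a group. All dcKO libraries lie above all p20 controls for Rad21l and below them for Wapl, and the adult groups of Espl1 do not overlap.

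The dcKO comparison was also fitted with the libraries of tag number 1 alone and of tag number 2 alone. The labels tie no tag of one genotype to a tag of another, so these are 2 arbitrary matchings of subsets and not batches. With 4 dcKO against 4 control libraries of tag 1, 6 of 9 members passed, and with tag 2 only Rad21 did (0.32, adjusted p = 0.0477). Over all genes, 4006 passed with tag 2 alone and 8531 with both tags, so calls were lost well beyond the members. Espl1 was among the 6 of tag 1 (−0.32, adjusted p = 0.0224). Stag3 differed by 1.32 (adjusted p = 0.00351) in tag 1 and by 0.28 (adjusted p = 0.496) in tag 2, with dcKO levels of 15 to 21.5 CPM and 7.26 to 13 CPM. Sgo1 differed by −0.96 (adjusted p = 9.16e-06) and −0.42 (adjusted p = 0.0547). Wapl differed by −0.63 (adjusted p = 4.14e-05) and −0.38 (adjusted p = 0.0614), and Rad21l by 0.93 and 0.74 (adjusted p = 0.00849 and 0.15). The direction was the same in both tags for Rad21, Stag3, Sgo1, Wapl and Rad21l, and the difference between tags was not tested. Rad21 itself stood higher in control tag 1 (224 to 261 CPM) than in control tag 2 (162 to 223 CPM). In Exosc10 cKO it differed by −0.49 (adjusted p = 0.00359) in tag 1 and by 0.35 (adjusted p = 0.122) in tag 2. The rise of Rad21 in dcKO was lost in 5 of 16 fits that left out 1 library, control 2_4 or any of dcKO 1_1 to 1_4, at 0.22 to 0.33 over the 16 fits, and also with ERCC scaling (0.22, adjusted p = 0.241) and with sums per tag (0.27, adjusted p = 0.296). With the 4 libraries of a tag summed to 1 sample, Sgo1, Wapl, Stag3 and Rad21l passed in dcKO (adjusted p = 0.0136, 0.0129, 0.0468 and 0.0328).

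**Figure D5:**
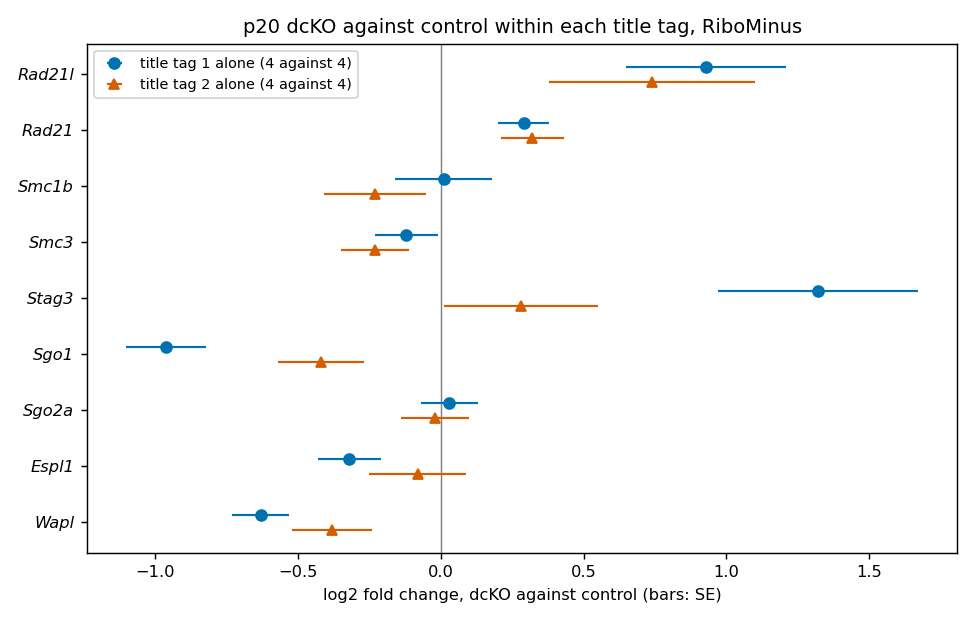
Log2 fold change of dcKO against control at p20 (x axis) for each tested member, fitted with libraries of tag number 1 (circles) and of tag number 2 (triangles), numbers that the labels do not tie across genotypes, 4 against 4 libraries; bars are standard errors. Stag3 is at 1.32 in tag 1 and 0.28 in tag 2, and Rad21 is near 0.3 in both.

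Age was compared in controls of the RiboMinus set, where age and the set of titles cannot be told apart. Between adult GV and p20 controls 19.1% of genes and 3 of 9 members passed: Rad21 (0.35 ± 0.10) and Smc3 (0.31 ± 0.08) were higher in adults and Smc1b (−0.40 ± 0.13) lower, with a member median of 0.07 beside 0.00. Rad21 stood at 162, 224 and 261 CPM at p20 and 243, 280 and 307 CPM in adults, and Smc1b at 24.4, 34.9 and 42.5 CPM and 21.2, 26.5 and 29.2 CPM. With ERCC scaling the median over all genes was −1.69 and all 9 members were lower in adults, so the direction of Rad21 and Smc3 depends on the scaling. With sums per title tag none of the 3 passed: Rad21 was 0.36 (adjusted p = 0.329), Smc3 0.32 (adjusted p = 0.221) and Smc1b −0.39 (adjusted p = 0.314). Smc1b was also lost with no filter (−0.38, adjusted p = 0.0584). The Dis3 effect in adults minus that at p20 passed for 9.32% of genes and 0 of 9 members (median −0.17 beside 0.02), with Espl1 under 0.05 before adjustment and 0 called by DESeq2.

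Summed levels of marker lists differed between several of these groups. The summed level of 11 granulosa markers, led by Cyp19a1 and Kitl, was 64.1 to 157 CPM in MII controls and 22.9 to 61.7 CPM in MII Dis3 cKO, and 58.0 to 74.3 CPM in p20 controls and 25.8 to 47.2 CPM in dcKO. The sum of 10 oocyte markers was 10500 to 14400 CPM in p20 controls and 15000 to 18100 CPM in dcKO, and the sum of the dividing-cell markers Mki67 and Top2a, which oocytes also hold, was 672 to 818 CPM and 280 to 524 CPM. The 7 blood, vessel and stroma markers summed to 48.4 to 73.9 CPM in p20 controls and 26.3 to 45.9 CPM in dcKO, most of it Pecam1. In MII eggs the dividing-cell sum was 311 to 477 CPM in controls and 221 to 332 CPM in Dis3 cKO. At GV3h the dividing-cell sum was 378 to 471 CPM in controls and 229 to 433 CPM in Dis3 cKO, and the blood, vessel and stroma sum was 57.6 to 84.5 CPM and 32 to 57 CPM, without overlap. At GV the latter was 59.9 to 96.9 CPM in controls and 18.7 to 65.8 CPM in Dis3 cKO. The dividing-cell sum was 443 to 609 CPM in GV controls and 271 to 457 CPM in GV Dis3 cKO, and 646 to 779 CPM in adult controls and 540 to 651 CPM in adult Dis3 cKO, both with overlap, and in Exosc10 cKO the blood, vessel and stroma sum was 67.5 to 115 CPM. The part of these markers in the results was not tested.

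A list of 26 partners and regulators of cohesin was read beside the members, and all 26 were tested in every fit. Of these, 3 passed at GV (2 higher, 1 lower), 12 at GV3h (6 and 6), 11 at MII (5 and 6), 13 in adult Dis3 cKO (10 and 3), 1 in p20 Dis3 cKO (higher), 4 in Exosc10 cKO (2 and 2) and 11 in dcKO (6 and 5). As shares of the list these were 11.5% at GV beside 21.9% of all genes, 46.2% beside 38.6% at GV3h, 42.3% beside 42.1% at MII, 50% beside 28.1% in adult Dis3 cKO, 3.8% beside 7.37% in p20 Dis3 cKO, 15.4% beside 7.45% in Exosc10 cKO and 42.3% beside 53.7% in dcKO. With sums per title tag 0 of the 26, and 0 of all genes, passed in adult Dis3 cKO, so every adult value named here was lost as a call, and with ERCC scaling 6 passed there, Stag1 (0.35, adjusted p = 0.198) and Sycp2 (0.08, adjusted p = 0.759) not among them. At GV, at MII and in both p20 Dis3 cKO and dcKO the share was near or under that of all genes. Stag1, a general STAG subunit, was higher in 6 of the 7 comparisons, by 0.91 at GV, 0.80 at GV3h, 0.87 in adult Dis3 cKO, 0.68 in p20 Dis3 cKO, 0.59 in Exosc10 cKO and 0.97 in dcKO, and was not called at MII. At GV it stood at 21, 37.5 and 44.8 CPM in controls and 22.3, 75.8 and 93.9 CPM in Dis3 cKO, and in adults at 52.1, 66.3 and 81.7 CPM and 86.2, 116 and 151 CPM, without overlap. Nipbl, the cohesin loader, fell by 0.45 at GV, 0.55 at GV3h, 1.13 at MII, 0.35 in adult Dis3 cKO and 0.48 in dcKO. In MII eggs it stood at 554, 642 and 847 CPM in controls and 174, 284 and 569 CPM in Dis3 cKO.

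Other genes of the list passed in fewer comparisons. Pds5b, a regulator of cohesin release, was higher at GV (0.47), at GV3h (0.75) and in dcKO (0.57). Of the PP2A subunits, Ppp2r5b was higher at MII (1.01), and Ppp2r5e at GV3h (0.36), at MII (0.54), in adult Dis3 cKO (0.43) and in dcKO (0.65). Sgo2b, a shugoshin copy related to Sgo2a, was lower at GV3h (−0.46) and at MII (−0.67). Pttg1, which encodes the separase inhibitor securin, was lower at GV3h (−0.31) and in adult Dis3 cKO (−0.98 ± 0.08, adjusted p = 8.63e-08), and higher at MII (0.44 ± 0.12, adjusted p = 0.00214). It did not pass at GV, in either single knockout at p20 or in dcKO. Its GV3h call was lost without control 1 or control 4, at −0.36 to −0.27 over 24 fits. The PP2A scaffold Ppp2r1a was lower at GV3h (−0.50) and in adult Dis3 cKO (−0.60), and the axis gene Sycp2 was higher in the latter (0.64). In Exosc10 cKO the PP2A subunit Ppp2r5a (−0.93) and the loader subunit Mau2 (−0.27) were lower and Ppp2r5c (0.25) higher. There the call of Mau2 was lost in 6 of 16 fits that left out 1 library and that of Ppp2r5c in 2 of 16. In dcKO Ppp2r5a was called in the other direction, with a median of 70.7 CPM against 59.0 CPM in controls. Mau2 was also called lower at MII (medians 86.8 against 120 CPM), and Ppp2r5c higher in adult Dis3 cKO (415 against 356 CPM).

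In dcKO oocytes Sgo2b fell by 1.78 ± 0.33, from 15.7, 30.2 and 49.9 CPM to 3.72, 6.85 and 24.0 CPM, and Esco1, an acetyltransferase that locks cohesin on chromatin, fell by 1.03 ± 0.11, from 260, 349 and 463 CPM to 123, 176 and 207 CPM without overlap. Hormad1, an axis protein of meiotic prophase, rose by 2.45 ± 0.76 from a low level, 0.117, 0.337 and 0.520 CPM in controls to 0.165, 0.995 and 4.64 CPM. Esco1 was also called lower at MII, with a median of 390 CPM against 504 CPM in controls. In adult Dis3 cKO it was called in the other direction, at 434 against 378 CPM, a call lost with sums per title tag. Smc1a, the general counterpart of Smc1b, was lower at GV3h (−0.38 ± 0.10), higher at MII (0.25 ± 0.11, adjusted p = 0.0488) and not called in the other 5 comparisons. The MII call of Smc1a was lost in 13 of 24 fits that left out 1 library, at 0.20 to 0.30.

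Genes with the pattern most like that of a member were sought by Pearson's r of log2(CPM + 1) over libraries, as a description with no test, since libraries of all groups share stage and genotype differences. Over 71 poly(A) libraries, Sgo2a was most like Kctd18 (r = 0.982), which lies beside it on chromosome 1 with 15198 bases between them, then Bmp2k (0.917) and Elavl2 (0.913). Smc1b was most like Hsdl2 (0.791), Nemf (0.782) and Atp2c1 (0.778), and Espl1 was most like Gle1 (0.881), Ppp2r1a (0.867) and Nf2 (0.866). Over 48 RiboMinus libraries the leading genes were others: Gm28078 (0.789), Cdkn1b (0.745) and Khdc1b (0.736) for Sgo2a, Pls1 (0.786), Cnot1 (0.773) and Rasa1 (0.761) for Smc1b, and Gtf3c1 (0.856), Kmt2b (0.855) and Slc45a3 (0.851) for Espl1. Rec8 was not among the genes tested and has no such list.

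Peaks of CUT&Tag were read within 1 kb of the annotated starts of the 9 members that had one, as a description. Pol II peaks lay near Stag3 in 4 of 9 lists, near Sgo1 in 2 and near Smc3 in 1, which is 7 of 81 pairs of member and list (8.6%), while 2.9% to 14.6% of 27025 genes had a peak in single lists. For Stag3 these were 1 of 3 adult control lists, 2 of 3 p20 control lists and 1 of 3 adult Dis3 cKO lists. In the first adult control list the peak at chr5:138280079-138280533 covered the whole Stag3 promoter printed above, and for Sgo1 the peak at chr17:53688835-53689637 of the second adult control list covered the Sgo1 promoter.

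H3K27me3 peaks lay near Rec8 in 5 of 12 lists, near Sgo2a in 4, near Smc1b in 2 and near Stag3 in 1, which is 12 of 108 pairs (11.1%), while 18.4% to 33.7% of genes had a peak. For Rec8 they fell in each of the 4 groups: 1 of 3 lists in adult controls, p20 controls and adult Dis3 cKO and 2 of 3 in dcKO. The peak at chr14:55617644-55619033 in adult Dis3 cKO covered the Rec8 promoter shown above and its start. Near Sgo2a they fell in 2 of 3 adult Dis3 cKO lists and 2 of 3 dcKO lists and in 0 of 6 control lists, but the knockout lists also held more peaks, 224934 to 299716 against 87394 to 202628. The positions and calls are the authors', given on mm10, and the IgG lists were not analysed here.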

How the data were processed

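Single-oocyte poly(A) and RiboMinus RNA-seq and CUT&Tag of pooled oocytes were read from the deposited files. Per the submitters' processing notes, cutadapt 2.5, FastQC 0.11.8, STAR 2.7.2a, SAMtools 1.9, HTSeq 0.9.1, R 3.5.1, DESeq2 1.24.0, SEACR and mm10 were used. The authors deposited whole-number counts per gene, not normalized, with ERCC counts apart, and CUT&Tag peak lists whose values are signal. Per the series' design text, those lists come from reads sampled to equal numbers.

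Groups were taken from the labels. Counts were tested with edgeR 4.0.16 (quasi-likelihood F test, TMM, filterByExpr, Benjamini-Hochberg threshold 0.05) in R 4.3.3, in 1 fit of all 71 poly(A) libraries (17389 genes), fits of the adult (15334 genes) and p20 (15882 genes) RiboMinus groups, and 1 fit of all 48 RiboMinus libraries (17267 genes) for comparisons across age. The procedure was tested on simulated data with 200 changed genes. Poly(A) depth had a median of 9510351 gene counts and RiboMinus depth 18164035, so 1 read is far below 1 CPM. The Sgo2a to Sgo1 ratio used counts plus 1 and exact permutation tests (scipy 1.17.1). Alternatives were ERCC scaling, RLE factors, DESeq2 1.42.0, no filter, a filter of 1 CPM in 8 libraries, fits of only the groups compared, title numbers as a block, sums per title tag and libraries left out. Gene symbols matched 99.7% and 99.4% of IDs, and no file held an unnamed gene. No 2 libraries were identical.

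The members and lists were chosen with earlier results of these data known. The text names all 10 members. From the list of 26 partners it names, per knockout comparison, up to 2 genes with the largest change in each direction past the threshold, and also Pttg1 and Smc1a. For likeness it names the 3 genes of highest r for Smc1b, Sgo2a and Espl1. Fits within title tags, with Dis3 cKO numbers 9 to 16 alone, and without each library were added after seeing the data. IgG lists were not used here.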

Additional observations from a re-analysis of the deposited data

Results flagged for a closer look

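In 81 groups of 8 libraries, the highest or lowest value was compared with its nearest neighbour, relative to the range of the group (Dixon's 95% limit). Chance picks about 1 in 20 groups, and 6 were picked here. Sgo1 was 115 CPM in GV control 1 (next 79.3 CPM) and Stag3 1.12 CPM in MII control 1 (next 0.472 CPM). Espl1 was 557 CPM in adult control AM1758_3 (next 427 CPM) and 482 CPM in p20 control 2_1 (next 429 CPM). Rad21l was 2.87 CPM in p20 control 2_1 (next 7.29 CPM) and 20.4 CPM in p20 Dis3 cKO 1_4 (next 10.2 CPM).

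The effect of Dis3 loss differed between MII and GV, by a test of the difference itself, for Rad21 (−0.64), Smc1b (−0.93) and Stag3 (3.07). The dcKO effect departed from the sum of both single effects for Smc3 (−0.57), Stag3 (1.24), Sgo1 (−0.84), Sgo2a (−0.28) and Wapl (−0.58). With ERCC scaling the first 2 were −0.04 (Rad21, adjusted p = 0.925) and −0.25 (Smc1b, adjusted p = 0.577), of the 5 departures only that of Stag3 passed, and with sums per title tag none of the 5 passed. The other values are on the log2 scale, with an adjusted p under 0.05 in edgeR's quasi-likelihood test.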

How the results depend on the processing

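RLE factors, DESeq2 and the 1 CPM filter left every count of members called within 1.5 times, while each ended the additivity call of Sgo2a, and the first 2 added Sgo2a at MII. With ERCC scaling the counts were 2 at GV, 1 at GV3h, 2 at MII, 1 for the MII minus GV difference, 5 in adult Dis3 cKO, 0 in Exosc10 cKO, 3 for dcKO against Dis3 cKO, 1 for additivity and 9 for adult against p20 controls. Directions turned with ERCC scaling. From GV to MII in controls, Rad21 was −0.92, Smc1b −0.85, Smc3 −1.25, Sgo1 −1.06, Sgo2a −0.98, Espl1 −0.98 and Wapl −1.0. In Dis3 cKO, Rad21 was −0.96, Smc1b −1.10, Smc3 −0.80, Sgo1 −0.81, Sgo2a −0.54, Espl1 −0.42 and Wapl −0.82. In adult Dis3 cKO, Rad21 was −0.36, Sgo1 −0.48 and Smc1a −0.56, and Sgo2a was 0.01 for dcKO against Dis3 cKO. In adult against p20 controls, Rad21 was −1.33, Smc3 −1.38, Stag3 −1.60, Sgo1 −1.51, Espl1 −1.69 and Wapl −1.50. Rad21 was −0.03 for dcKO against Exosc10 cKO in tag 2 alone. With only the groups compared, 1 member passed at GV, 1 for GV3h against GV controls, 1 in p20 Dis3 cKO and 0 in Exosc10 cKO, and with no filter 1 in adult Dis3 cKO and 0 in Exosc10 cKO. Tag 2 alone gave 1 in dcKO and 3 for additivity. Sums per tag gave 0 in adult Dis3 cKO, Exosc10 cKO, additivity and adult against p20 controls. Without GV control 1 and MII Dis3 cKO 15, 2 passed at GV and the Sgo2a to Sgo1 difference at GV was −0.439. With Dis3 cKO numbers 9 to 16 alone, 1 passed for GV3h against GV controls. H3K27me3 pairs numbered 5 within 250 bases, 34 within 5 kb and 4 above the median signal, and Pol II pairs 22 within 5 kb and 4 above it. The causes were not tested. Leaving out 1 library gave 0 to 1 at GV, 2 to 3 at GV3h, 4 to 5 at MII, 0 for GV3h against GV, 8 and 7 for MII against GV in controls and Dis3 cKO, 3 for their difference, 2 to 3 in adult Dis3 cKO, 0 in p20 Dis3 cKO, 0 to 1 in Exosc10 cKO, 4 to 5 in dcKO, 4 to 6 against Dis3 cKO, 6 against Exosc10 cKO, 4 to 6 for additivity, 9 to 12 H3K27me3 pairs and 5 to 7 Pol II pairs. It was not run for comparisons across age. Title numbers did not pair libraries (r of same-numbered libraries −0.316 to 0.217, best with their own number in 0 to 1 of 8). A replicate block over numbers 1 to 8 gave 1 member at GV (Rad21l −1.19), where the same libraries without the block gave 0. It lost Smc1b for MII minus GV (−0.75). At GV3h, numbers 1 to 8 lost Smc1b and gained Smc3 and Sgo2a, both with the block (−0.42, −0.31 and −0.45) and without it (−0.39, −0.32 and −0.43), and a block at p20 lost Sgo2a for additivity (−0.28). A Rec8 to Rad21 ratio could not be formed, as Rec8 was nearly without reads.

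Counts over all genes moved by more than 1.5 times in these cases. With only the groups compared, MII went from 7315 to 4336, GV3h against GV controls from 471 to 2083 and MII minus GV from 2287 to 1408. With ERCC scaling, GV3h against GV went to 118, MII against GV in controls from 10179 to 15275, MII minus GV to 5237, adult Dis3 cKO from 4305 to 6843, Exosc10 cKO from 1183 to 364, dcKO against Exosc10 cKO from 7809 to 5015, additivity from 4984 to 2155, adult against p20 controls from 3294 to 14869 and the adult minus p20 effect from 1610 to 583. Without the 2 libraries apart, GV3h against GV went to 767, and leaving out 1 library gave 226 to 555. Tag 2 alone gave 371 in p20 Dis3 cKO (1171 with both), 431 in Exosc10 cKO (615 with tag 1), 4006 in dcKO (8531 with both), 4134 against Dis3 cKO (8182), 4518 against Exosc10 cKO and 2352 for additivity. Sums per tag gave 0 in adult Dis3 cKO, 286 in p20 Dis3 cKO, 174 in Exosc10 cKO, 1307 for additivity, 237 for adult against p20 and 70 for the adult minus p20 effect.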
